A study of Rattus norvegicus with 12 samples.

Results

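Interferon-induced genes were examined in the urinary bladder of female Sprague Dawley rats of about 3 months. They were compared between 6 sham-operated bladders (surgery alone) and 6 bladders taken 10 days after surgery with freezing of the ganglia on both sides, which removes the nerve supply of the bladder. The set held 44 genes, chosen by symbol from those known to be induced by interferon. Of these, 41 were measured, out of 18166 genes read on 12 arrays, 1 per sample; Eif2ak2, Oas3 and Bst2 have no probe set of their own in the gene table and were not analysed here. Each member stands for its brightest probe set. How long after sham surgery those bladders were taken is not stated, and the freezing is itself an injury that the sham bladders did not have. The labels name smooth muscle as nearly all of the tissue. The smooth muscle genes Tagln, Myh11 and Des were bright in sham bladders, with means of 13.32, 13.14 and 13.08 on the log2 scale, against 6.84 for the median gene. The urothelial genes Upk1a, Upk2 and Upk1b were bright there too, at 12.72, 12.63 and 12.46, so the samples also held the lining epithelium. Whether every array stands for a separate animal is not stated, so the p-values measure the spread between these samples, which may be technical.

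Interferons are secreted proteins that cells release on sensing foreign or misplaced nucleic acid, and that lymphocytes release on activation. They bind receptors that activate Janus kinases, which phosphorylate STAT proteins. STAT2 and IRF9 are parts of the complex ISGF3, which binds the interferon-stimulated response element (ISRE) in promoters. The gamma-activated site (GAS) is the element through which interferon gamma acts. The induced genes restrict viruses and intracellular microbes, and some of them (Stat2, Irf9, Irf7) feed back on the same pathway.

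The promoters of the members were searched for both elements. RefSeq promoters (GRCr8, 250 bases before to 50 after each start site) were matched by gene identifier for 32 of the 41 measured members. On either strand, GAAANNGAAA (reverse complement TTTCNNTTTC), the core of an ISRE, was found in 18 of 32 (56.2%), against 3.92% of all 33469 promoters of the same length. All 18 were among the 28 promoters of members that rose; none of the 4 promoters of members not called held it. The palindrome TTCNNNGAA, the core of a GAS, was found in 8 of 32 (25%), against 8.87% of all promoters. It was held by 6 of the 28 promoters of members that rose and by 2 of the 4 of members not called. With only 4 promoters of members not called, neither split shows that a match goes with the change. The members were chosen as genes known to be induced by interferon. More matches than in all promoters are expected from that choice, with or without denervation. These are matches of letters and not shown to be sites. The 4 promoters with an ISRE match whose genes changed most are shown first, and that of Oas1a, which holds overlapping matches, last, each 5′ to 3′ on the strand of the gene with the matches in capitals.
Irf7, chr1:205799974-205800273, minus strand: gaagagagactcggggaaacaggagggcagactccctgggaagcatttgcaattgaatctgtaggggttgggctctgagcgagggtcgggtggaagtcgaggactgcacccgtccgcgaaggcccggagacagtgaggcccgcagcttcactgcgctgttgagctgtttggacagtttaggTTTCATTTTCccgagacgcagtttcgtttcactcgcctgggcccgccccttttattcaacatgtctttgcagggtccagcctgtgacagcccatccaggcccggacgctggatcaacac
Oasl2, chr12:47383136-47383435, minus strand: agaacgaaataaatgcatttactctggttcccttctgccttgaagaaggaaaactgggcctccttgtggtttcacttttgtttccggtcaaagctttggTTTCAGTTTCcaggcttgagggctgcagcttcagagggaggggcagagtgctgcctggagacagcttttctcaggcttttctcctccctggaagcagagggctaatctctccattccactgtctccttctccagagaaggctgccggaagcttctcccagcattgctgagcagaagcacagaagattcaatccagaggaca
Ifit3, chr1:241527076-241527375, plus strand: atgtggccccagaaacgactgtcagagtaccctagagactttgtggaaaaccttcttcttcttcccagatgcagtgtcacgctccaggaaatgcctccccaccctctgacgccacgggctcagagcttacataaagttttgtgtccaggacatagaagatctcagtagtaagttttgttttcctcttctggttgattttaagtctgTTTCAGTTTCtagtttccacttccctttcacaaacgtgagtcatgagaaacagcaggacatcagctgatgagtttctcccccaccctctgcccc
Rsad2, chr6:48788071-48788370, minus strand: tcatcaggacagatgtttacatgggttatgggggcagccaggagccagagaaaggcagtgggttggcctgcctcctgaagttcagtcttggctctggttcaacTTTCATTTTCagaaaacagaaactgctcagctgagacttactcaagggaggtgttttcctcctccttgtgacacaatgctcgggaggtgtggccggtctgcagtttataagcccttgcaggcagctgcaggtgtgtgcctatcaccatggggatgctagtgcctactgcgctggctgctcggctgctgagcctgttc
Oas1a, chr12:41330216-41330515, plus strand: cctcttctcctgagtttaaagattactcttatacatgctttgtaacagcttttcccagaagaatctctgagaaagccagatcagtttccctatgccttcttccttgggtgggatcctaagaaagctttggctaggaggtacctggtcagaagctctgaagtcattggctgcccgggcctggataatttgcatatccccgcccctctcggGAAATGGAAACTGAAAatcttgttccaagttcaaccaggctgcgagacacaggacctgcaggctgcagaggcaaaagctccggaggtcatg
The first base of the match lay at -69 from the start site in Irf7, at -151 in Oasl2, at -44 in Ifit3 and at -147 in Rsad2, and the overlapping matches of Oas1a began at -41 and -35. Slfn4 and Mx1, which had the largest changes of all members, held no match to these letters in this window.

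After denervation 36 of the 41 members rose and 0 fell, while 5 were not called (limma, Benjamini-Hochberg adjusted p under 0.05 over all genes), against 11.9% of all genes higher and 16.9% lower, or 28.7% in either direction. None was lower at an unadjusted p under 0.05 or by the exact rank-sum test (0 in both). The median change of the members was 1.46 on the log2 scale, against -0.04 over all genes. Of the members, 31 both rose and changed at least 2-fold, which 2.90% of all genes did. In 31 members, not all of them the same as those, every denervated value lay above every sham value, against 5.76% of all genes. Slfn4, an immune Schlafen gene, changed most (15.3-fold), followed by the antiviral GTPase Mx1 (13.3-fold), the transcription factor Irf7 (9.15-fold) and the ubiquitin-like modifier Isg15 (7.49-fold). Of the 36, 19 had sham means below the median gene, so their signal over background in sham bladders is unknown and the sizes of their changes are uncertain. In bulk tissue such as this, more cells of a type and more RNA per cell cannot be told apart.

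**Figure D1:**
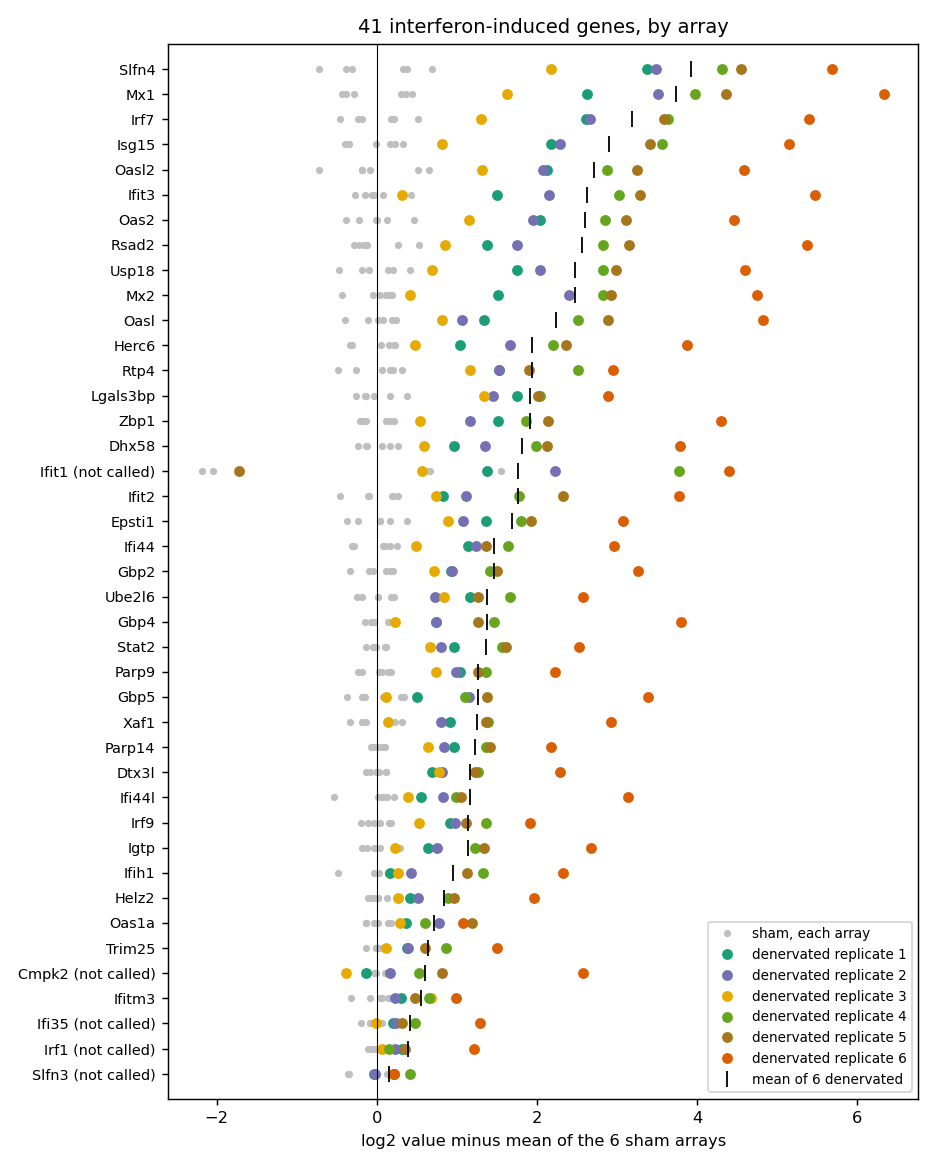
Log2 value of each of the 41 members on each of the 12 arrays, minus the mean of the 6 sham arrays, with genes in order of their mean change. Grey points are sham arrays, coloured points are denervated arrays and black bars the mean of the 6 denervated; denervated replicate 6 was highest for 39 members and denervated replicate 3 lowest for 35.

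Denervated replicate 2 stood apart from its group over all genes. The first principal component, with 58.0% of the variance, placed it at -5.8. The remaining 5 denervated arrays were at 25.9 to 42.5 and the sham arrays at -30.2 to -22.5. It did not stand apart in this gene set, where its mean lay 1.26 above the sham mean, within the 0.63 to 3.29 of the others. Without it 36 members rose, all of which rose with it, against 14.4% of all genes. In this gene set denervated replicate 6 was highest, and without it 37 members rose (12.2% of all genes).

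Among the signalling factors, which carry the signal to promoters, 3 of 4 rose. Irf7, which amplifies the production of type I interferon, had values of 6.35 to 7.33 (median 6.81) in sham arrays and 8.11 to 12.21 (median 9.93) in denervated arrays, a change of 3.19 ± 0.51 (SE, n = 6 per group, limma adjusted p = 0.000647). The groups did not overlap, and the lowest denervated value was that of replicate 3 and the highest that of replicate 6. Stat2, the STAT particular to ISGF3, lay at 7.59 to 7.83 (median 7.70) in sham and 8.39 to 10.24 (median 8.98) in denervated arrays, a change of 1.36 ± 0.25 (adjusted p = 0.00163). Irf9, the DNA-binding part of ISGF3, rose by 1.14 ± 0.18 (adjusted p = 0.000661), also without overlap. Irf1, a factor strongly induced by interferon gamma, was not called at 0.39 ± 0.16 (adjusted p = 0.0814). Its sham values were 7.75 to 8.02 (median 7.83) and its denervated values 7.92 to 9.08 (median 8.14), with only replicate 6 above 8.21. It was called, at 0.23 ± 0.07, when replicate 6 was left out (adjusted p = 0.0276), and with all 12 arrays by the exact rank-sum test (0.0387) and with array weights (0.0471).

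The sensors of foreign nucleic acid rose in all 3 members measured. Zbp1, a sensor of Z-form nucleic acid that can trigger cell death, lay at 5.83 to 6.26 (median 6.03) in sham and at 6.58 to 10.34 (median 7.73) in denervated arrays, a change of 1.92 ± 0.47 (limma adjusted p = 0.00755). Dhx58, which encodes the RNA helicase LGP2, lay at 5.44 to 5.94 (median 5.65) against 6.27 to 9.47 (median 7.35), a change of 1.81 ± 0.41 (adjusted p = 0.00546). Neither gene overlapped between the groups. Ifih1, the sensor MDA5 of long double-stranded RNA, rose by 0.95 ± 0.31 with overlapping values (adjusted p = 0.0349). That call did not hold if any of sham replicates 1, 2, 4 and 6 or of denervated replicates 4 and 5 was left out, with adjusted p of 0.0526 to 0.0763, and with the replicate number as a block (0.0713).

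Oligoadenylate synthetases make the second messenger that activates RNase L. All 4 measured genes of this family in the set, which includes the OAS-like Oasl and Oasl2, rose without overlap. Oasl2 lay at 6.32 to 7.69 (median 6.91) in sham and at 8.36 to 11.63 (median 9.54) in denervated arrays, a change of 2.71 ± 0.45 (limma adjusted p = 0.000817). Oas2 lay at 5.04 to 5.90 (median 5.42) against 6.58 to 9.89 (median 7.87), a change of 2.60 ± 0.42 (adjusted p = 0.000764). Oasl rose by 2.24 ± 0.54 and Oas1a by 0.71 ± 0.15. Oas1a was the only member measured whose highest denervated array was replicate 5 (7.41, against 7.30 in replicate 6). Of 4 further Oas1 genes outside the set, Oas1b and Oas1i rose, Oas1f was lower by the same test (-0.42 ± 0.13, adjusted p = 0.0264) and Oas1k was not called (0.17 ± 0.14, adjusted p = 0.4). The Oas1 genes of the rat are close copies, so their probes may share signal.

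Both Mx genes, dynamin-like GTPases that block viral replication, rose without overlap. Mx1 lay at 5.36 to 6.23 (median 5.80) in sham arrays and at 7.42 to 12.13 (median 9.54) in denervated arrays, a change of 3.74 ± 0.59 (limma adjusted p = 0.000641). Its denervated values ran from 7.42 in replicate 3 and 8.42 in replicate 1 through 9.30, 9.77 and 10.15 to 12.13 in replicate 6. Mx2 lay at 6.40 to 7.03 (median 6.92) against 7.26 to 11.59 (median 9.46), a change of 2.47 ± 0.53 (adjusted p = 0.00367).

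The IFIT proteins bind viral RNA and hold back its translation. Ifit3 lay at 4.68 to 5.38 (median 4.91) in sham and at 5.27 to 10.43 (median 7.54) in denervated arrays, a change of 2.62 ± 0.63 (limma adjusted p = 0.00745). Its groups overlapped through denervated replicate 3 alone, at 5.27, and replicate 6 was 35.9-fold above it. Ifit2 rose by 1.76 ± 0.43 without overlap. Ifit1 was not called, at 1.77 ± 0.99 (adjusted p = 0.211), and its values were split within both groups. Sham replicates 1 and 2 stood at 3.88 and 4.02 and the other 4 at 6.71 to 7.61, while denervated replicate 5 stood at 4.34 and the other 5 at 6.63 to 10.46. The medians were 6.72 in sham and 7.86 in denervated arrays.

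**Figure D2:**
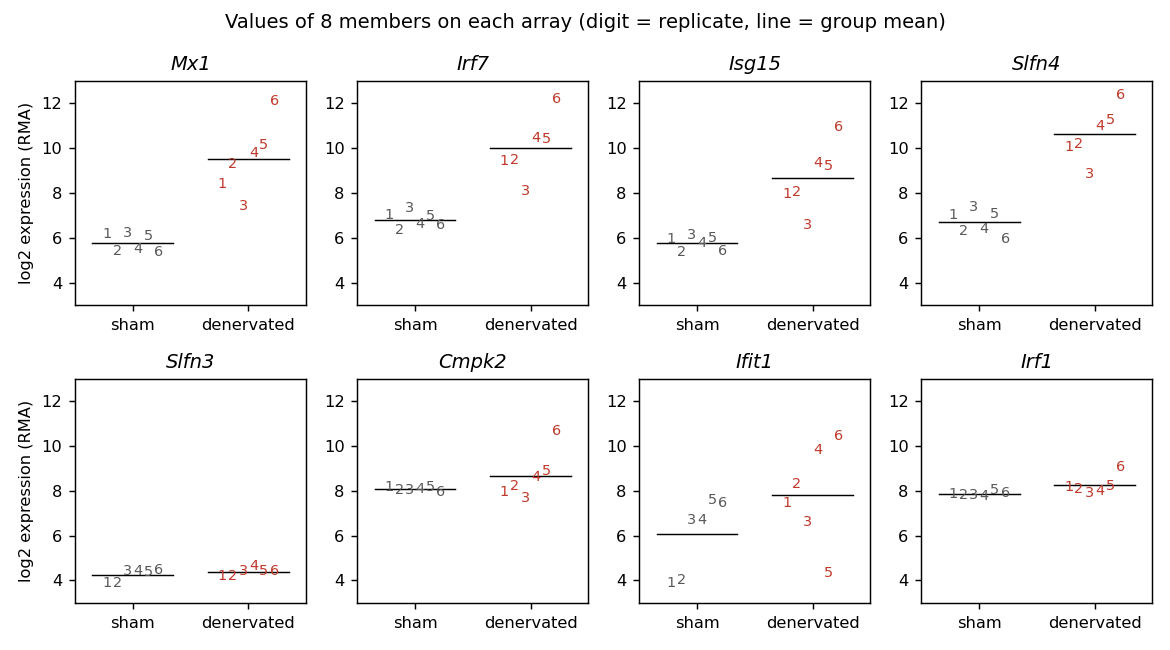
Log2 expression of 8 members on each array; digits are replicate numbers and lines the group means. Mx1, Irf7, Isg15 and Slfn4 did not overlap between the groups, while Slfn3, Cmpk2, Ifit1 and Irf1 overlapped and were not called.

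The guanylate-binding proteins and the related Igtp are large GTPases that attack vacuoles holding microbes and respond strongly to interferon gamma, and all 4 in the set rose. Gbp2 lay at 5.91 to 6.44 (median 6.27) in sham and at 6.96 to 9.50 (median 7.42) in denervated arrays, a change of 1.46 ± 0.34 (limma adjusted p = 0.00618). Gbp4 lay at 4.82 to 5.12 (median 4.93) against 5.20 to 8.77 (median 5.97), a change of 1.38 ± 0.45 (adjusted p = 0.036). Without denervated replicate 6 the change of Gbp4 was 0.89 ± 0.18, smaller and with a smaller error (adjusted p = 0.00332). Its call was lost without any 1 of the 6 sham arrays or denervated replicate 4 or 5, with adjusted p of 0.0535 to 0.0661. Igtp rose by 1.14 ± 0.31 and Gbp5 by 1.27 ± 0.42, both with overlapping values. The call of Gbp5 was lost on leaving out any of sham replicates 1, 2, 4 and 6 or of denervated replicates 4 and 5, with adjusted p of 0.0549 to 0.0729, and with the replicate block (0.052). Of relatives outside the set, Gbp6, Gbp7 (1.26 ± 0.37) and Irgm (0.95 ± 0.29) rose. Irgm lost its call on leaving out any of sham replicates 2 and 6 and denervated replicate 4 (adjusted p of 0.0529 to 0.0548). Gbp1 was not called at 1.67 ± 0.65 (adjusted p = 0.07), although its groups did not overlap and the exact rank-sum test called it (0.0162). Without denervated replicate 6 its difference was 0.97 (limma adjusted p = 0.00737).

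Genes of the ISG15 pathway, which attaches the ubiquitin-like Isg15 to other proteins, rose in all 5 members without overlap. Isg15 itself lay at 5.38 to 6.11 (median 5.86) in sham and at 6.59 to 10.93 (median 8.63) in denervated arrays, a change of 2.90 ± 0.54 (limma adjusted p = 0.00164). Usp18, the protease that removes Isg15 and also dampens interferon signalling at the receptor, lay at 5.76 to 6.64 (median 6.25) against 6.92 to 10.83 (median 8.66), a change of 2.48 ± 0.49 (adjusted p = 0.00222). A second, dimmer probe set of Usp18 gave 3.25. The ligase Herc6 rose by 1.94 ± 0.43, the conjugating enzyme Ube2l6 by 1.38 ± 0.25 and the ligase Trim25 by 0.64 ± 0.18.

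All 3 measured members of the PARP group, which add or read ADP-ribose, rose without overlap. Parp9 lay at 7.42 to 7.83 (median 7.70) in sham and at 8.39 to 9.88 (median 8.80) in denervated arrays, a change of 1.27 ± 0.20 (limma adjusted p = 0.000605). Parp14, an ADP-ribosyltransferase, lay at 7.87 to 8.04 (median 7.93) against 8.58 to 10.11 (median 9.11), a change of 1.23 ± 0.20 (adjusted p = 0.000744). Dtx3l, the ubiquitin ligase that partners Parp9, rose by 1.17 ± 0.22. Parp9 and Dtx3l have neighbouring starts on the chromosome. Ifitm3, which blocks the entry of viruses at endosomes, was the membrane restriction factor of the set that was measured. It lay at 9.81 to 10.29 (median 10.19) against 10.36 to 11.12 (median 10.70) and rose by 0.55 ± 0.12, without overlap (adjusted p = 0.00527). In this gene denervated replicate 3, at 10.81, was second to replicate 6 and above replicates 1, 2, 4 and 5. Of its relatives outside the set, Ifitm1 rose by 0.82 ± 0.08 without overlap, and Ifitm2 was not called at 0.23 ± 0.08 (adjusted p = 0.0522).

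Of the 12 remaining effectors 9 rose. Slfn4 lay at 5.97 to 7.38 (median 6.70) in sham and at 8.87 to 12.38 (median 10.59) in denervated arrays, a change of 3.93 ± 0.47 (limma adjusted p = 0.000141). Its close relative Slfn3 was dim and not called, at 3.87 to 4.45 (median 4.39) against 4.19 to 4.64 (median 4.43), a difference of 0.15 ± 0.12 (adjusted p = 0.395). Schlafen genes are near copies of each other, so the split of signal between them is uncertain. Rsad2, which encodes the antiviral enzyme viperin, lay at 5.10 to 5.91 (median 5.24) against 6.23 to 10.75 (median 7.67), a change of 2.56 ± 0.59 (adjusted p = 0.00584). Its neighbour Cmpk2, a mitochondrial nucleotide kinase, was not called, at 7.94 to 8.19 (median 8.05) against 7.69 to 10.65 (median 8.41), a difference of 0.60 ± 0.38 (adjusted p = 0.277). For Cmpk2, denervated replicates 1 and 3 stood at 7.94 and 7.69 and replicate 6 at 10.65. Without replicate 6 its difference was 0.20.

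Lgals3bp, a secreted glycoprotein that binds galectin, rose by 1.92 ± 0.22 and had the smallest adjusted p of the members (0.00011). The receptor chaperone Rtp4 rose by 1.94 ± 0.27, Epsti1 by 1.69 ± 0.30, Ifi44 by 1.47 ± 0.31, Xaf1, a partner of the apoptosis inhibitor XIAP, by 1.25 ± 0.35, and the helicase Helz2 by 0.84 ± 0.23. Xaf1 was not called by the exact rank-sum test (adjusted p = 0.0576). Ifi44l rose by 1.16 ± 0.37, and by 0.77 ± 0.15 without denervated replicate 6. It lost its call on leaving out any of sham replicates 1, 2, 4 and 6 or denervated replicate 5, with adjusted p of 0.0506 to 0.0689, and with the replicate block (0.0672). Ifi35 was not called, at 6.89 to 7.39 (median 7.04) against 7.08 to 8.38 (median 7.37), a difference of 0.42 ± 0.18 (adjusted p = 0.0955).

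The denervated arrays differed from each other far more in these genes than the sham arrays did. The SD over the 6 denervated arrays exceeded that over the 6 sham arrays for 40 of the 41 members, all but Slfn3, against 74.7% of all genes. The median ratio of these SDs was 4.00 over the members and 1.48 over all genes. An SD of at least 1 among denervated arrays was found for 98 of all genes, and 20 of these were members. A fit with 1 spread for both groups, as used here, takes no account of that difference; the exact rank-sum test, which does not model the spread, called 36 members higher (9.10% of all genes), 35 of them shared with the limma fit.

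**Figure D3:**
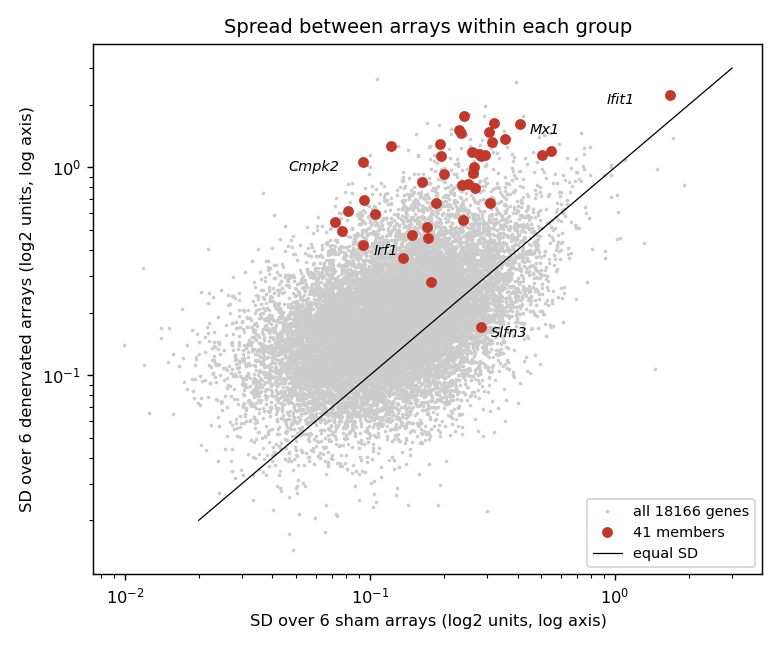
SD over the 6 denervated arrays against SD over the 6 sham arrays for all 18166 genes (grey) and the 41 members (red), both in log2 units on log axes. All members but Slfn3 lie above the line of equal SD.

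The order of the denervated arrays was nearly the same from gene to gene. Replicate 6 was highest for 39 of 41 members, against 21.8% of all genes, and replicate 3 was lowest for 35, against 15.7%. Both held at once for 34 members and for 5.66% of all genes. Replicates 4, 5 and 6 all lay above replicates 1, 2 and 3 for 36 members, against 6.04% of all genes. Between replicates 6 and 3 the median difference of the members was 2.76, and that of all genes -0.02. It ranged from 0.01 for Slfn3 to 5.17 for Ifit3, with 4.71 for Mx1, 4.51 for Rsad2 and 4.34 for Isg15. Such counts describe these 6 arrays, and the members, which share their arrays, are not independent of each other.

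As a mean over the 41 members, the denervated arrays lay 1.12, 1.26, 0.63, 1.88, 1.80 and 3.29 above the sham mean in replicates 1 to 6. Sham arrays lay between -0.23 and 0.22, so even replicate 3 stood above all of them. Replicate 3 exceeded every sham value in 32 of the 41 members, and replicates 4 and 6 did so in 40 each, while between 18.6% and 26.9% of all genes did so on any 1 denervated array. The sham arrays had an order of their own. Replicate 3 or 5 was highest for 33 members, against 37.2% of all genes, and replicate 2 or 6 lowest for 28, against 34.9%. These differences among sham arrays were small, with an SD of 0.18 in the member mean, against 0.92 among denervated arrays.

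Leaving out denervated replicate 6 made the change smaller in all 41 members and the standard error smaller in 40. The median change fell from 1.46 to 1.14, while the adjusted p became smaller in 36 members. Mx1, for example, changed by 3.22 ± 0.42 without it (limma adjusted p = 0.000293), Irf7 by 2.75 ± 0.36 and Isg15 by 2.45 ± 0.41. The SD of the member mean among the remaining 5 denervated arrays was 0.51.

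The rest of the pathway was read from a list of 106 genes, of which 82 were measured. Of these 45 rose and 4 fell, against 11.9% and 16.9% of all genes, with a median change of 0.47. The number that fell was 2 on leaving out any of sham replicates 3 and 5 and denervated replicates 3 and 5. Replicate 6 was the highest denervated array for 62 of the 82 and replicate 3 the lowest for 40. No interferon gene was called among the 7 measured (0 of 7; 2 at an unadjusted p under 0.05 and 0 by the exact rank-sum test). Ifnb1, the type I interferon made by many cell types, averaged 4.12 in sham and 4.11 in denervated arrays. Ifng, the interferon of lymphocytes, averaged 4.33 and 4.60, a difference of 0.27 ± 0.14 (limma adjusted p = 0.189). Its highest denervated value was 5.23, in replicate 6, against a denervated median of 4.47 and a highest sham value of 4.49. Among denervated arrays replicate 6 was also highest for Ifna1, and replicate 2 or 4 for the other ligands. Ifna1 stood at -0.31, Ifnl3 at -0.23, Ifnk at -0.17, Ifna4 at -0.14 and Ifna2 at -0.04. Ifna1 and Ifnl3 were called lower with the replicate block (adjusted p = 0.0292 and 0.0386), and Ifnl3 without sham replicate 1 (0.0358). All 7 means lay below the median gene in both groups, where changes may not be detectable.

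Receptors changed little. Ifnar1, a chain of the type I receptor, rose by 0.43 ± 0.08 without overlap (limma adjusted p = 0.0012), and Ifngr1, of the interferon gamma receptor, by 0.30 ± 0.08, though not by the exact rank-sum test (adjusted p = 0.085). Il10rb (0.31 ± 0.10) and Ifngr2 (0.21 ± 0.07) rose too, but the first call was lost on leaving out any of sham replicates 3, 4 and 6 or of denervated replicates 3 to 6 (adjusted p of 0.0537 to 0.0768) and the second without any 1 array but denervated replicate 1 or 2 (0.0569 to 0.0801). With the replicate block neither was called (0.0958 and 0.096). Ifnlr1, of the interferon lambda receptor, stood at 0.18 and was called without denervated replicate 2 (0.00543). The kinases Jak1 (0.07), Jak2 (0.17) and Tyk2 (0.27) were not called (0 of 3; 1 at an unadjusted p under 0.05 and 0 by the exact rank-sum test), although Tyk2 was without denervated replicate 2 (0.0262).

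Of 6 inhibitors, 2 rose and 2 fell. The phosphatase Ptpn6, abundant in blood cells, rose by 0.97 ± 0.18 and Socs3 by 0.47 ± 0.13, while Ptpn11 fell by 0.27 and Pias1 by 0.22. Pias1 lost its call on leaving out any of sham replicates 1, 3, 5 and 6 or of denervated replicates 1, 3 and 5 (limma adjusted p of 0.0542 to 0.0682), and both falls lost it with the replicate block (0.0847 for Pias1, 0.0611 for Ptpn11). Socs1, induced by interferon and a brake on its signal, was not called at 0.13. Among 14 genes of sensing and induction 8 rose and 1 fell. The endosomal RNA sensor Tlr7 (1.75 ± 0.26), the nucleotide phosphatase Samhd1 (1.68 ± 0.44) and the myeloid factors Irf8 (1.32 ± 0.21) and Irf5 (0.86 ± 0.16) rose most, and the adaptor Mavs fell by 0.29.

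Other interferon-stimulated genes outside the member set rose in 22 of 31 cases and fell in 1. Ifi27l2b rose by 2.37 ± 0.38, Oas1b by 2.11 ± 0.39, Gbp6 by 2.10 ± 0.40, Oas1i by 2.08 ± 0.33, and Samd9l and Ifi47 by 1.46 ± 0.26 each. Oas1f fell by 0.42, but not past the threshold if sham replicate 3 or 5 or any of denervated replicates 3, 4 and 5 was left out (limma adjusted p of 0.0508 to 0.0613), nor with the replicate block (0.0504). Of 16 genes known as targets of interferon gamma 9 rose and 0 fell. The chemokines Cxcl9 (3.01 ± 0.53) and Cxcl10 (2.20 ± 0.57), the immunoproteasome subunit Psmb8 (1.25 ± 0.20), the peptide transporter Tap1 (1.13 ± 0.24) and the class I regulator Nlrc5 (1.07 ± 0.29) were among them. Cxcl11 (1.48 ± 0.71), Ido1 (0.26) and Nos2 (0.44), named after their values were seen, were not called.

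**Figure D4:**
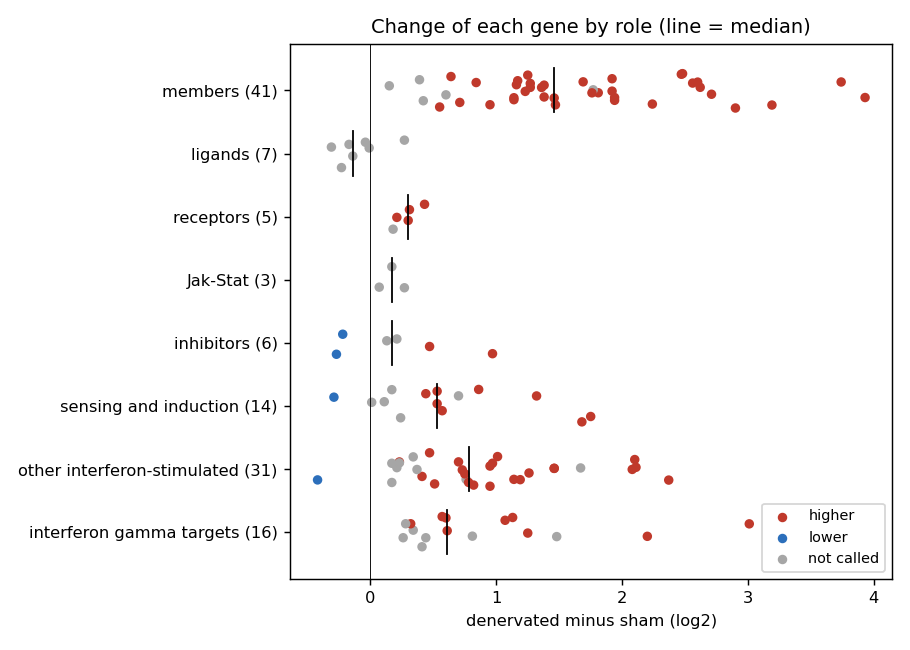
Denervated minus sham difference (log2) of each measured gene by role, with 1 point per gene (red higher, blue lower, grey not called) and a line at the median of each role. Ligands and Janus kinases hold no called gene, and the largest difference is 3.93 among the members (Slfn4) and 3.01 among interferon gamma targets (Cxcl9).

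Many markers of immune cells were higher in the same bladders, and their part in these results was not tested. Over all genes 11.9% rose and 16.9% fell, and in the shortest lists a single call is close to those shares. Of 16 monocyte and macrophage genes 15 rose, among them Lyz2 (2.11), Fcer1g (1.60) and Cybb (1.78). Their mean per array lay 1.17, 0.88, 1.03, 1.57, 1.45 and 1.65 above the sham mean in denervated replicates 1 to 6, against -0.09 to 0.11 in sham arrays. Replicates 4, 5 and 6 were thus highest in this list as in the members, but the range was narrow, with an SD of 0.31 against 0.92. Of 12 T and natural killer cell genes 10 rose, among them Cd4 (0.76), which rat macrophages also express, and Klrk1 (2.31). Cd8a (1.15), Cd8b (1.30), Cd2 (1.13), Nkg7 (1.31), Prf1 (1.28) and Ncr1 (0.56) rose too. The T cell genes Cd3d and Cd3e rose by less, 0.25 and 0.48, with means below the median gene in both groups. Cd3g (-0.19) and Gzmb (0.66) were not called. The mean of the 12 genes ran from 0.39 in replicate 3 to 1.98 in replicate 6, with replicate 5 next at 1.06. In sham arrays it lay between -0.16 and 0.12. Of 8 neutrophil genes 4 rose, with means of 0.32 to 1.14. Of 6 conventional dendritic cell genes 3 rose, with means of 0.17 in replicate 3 to 1.02 in replicate 6.

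Plasmacytoid dendritic cells, known for making type I interferon, were judged from 4 measured genes of 6, without their defining marker Siglech. Of these 0 rose and Cox6a2 fell by 0.27, while Spib (0.53), Ccr9 (0.27) and Pacsin1 (-0.18) were not called. Spib and Ccr9 were highest in denervated replicate 6. Their mean lay at 0.39 in replicate 5 and 0.60 in replicate 6, between -0.18 and -0.02 in the other 4 denervated arrays and between -0.11 and 0.10 in sham arrays. Of 5 genes of B and plasma cells, Jchain alone rose (2.92), and the mean of the list was highest in replicate 2 (1.34). Mast cell genes rose in 2 of 4 cases, with means of 0.12 to 0.71. Endothelial genes rose in 3 of 5 and fibroblast genes in 3 of 6 cases, against 11.9% of all genes. Their highest means were 0.57 and 0.51. Smooth muscle genes fell in 5 of 8 cases and rose in 1. Urothelial genes fell in 8 of 8 and Schwann cell genes in 5 of 5, against 16.9% of all genes. In that order, the mean changes of these lists went down to -0.69, -1.06 and -1.73 on single arrays.

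**Figure D5:**
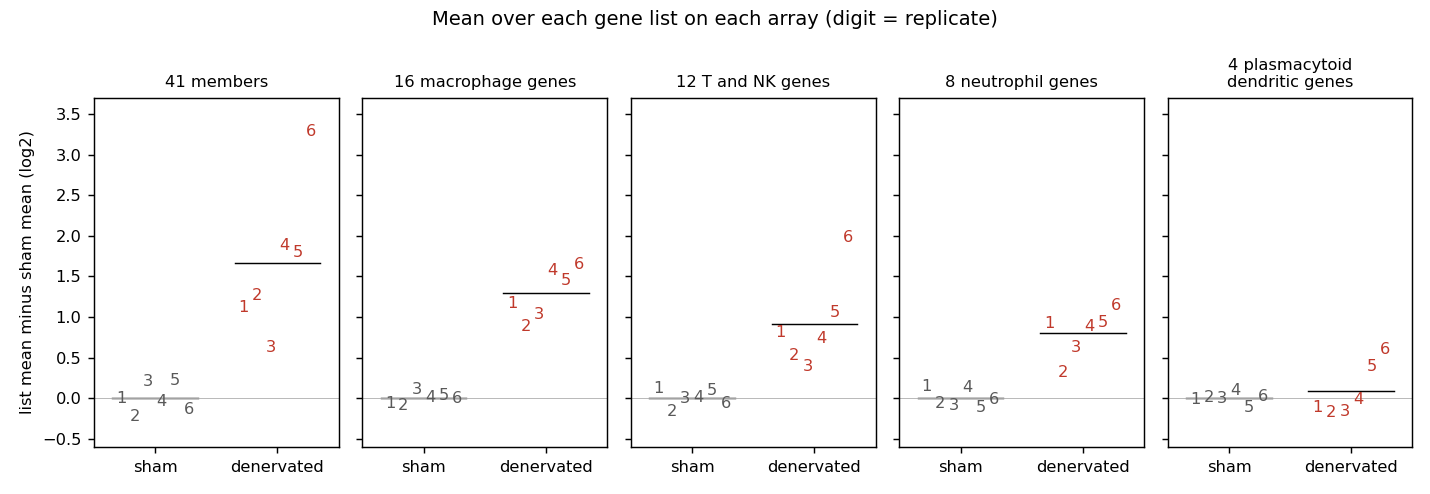
Mean over each gene list on each of the 12 arrays, minus the mean of the 6 sham arrays (log2), for the 41 members and 4 immune cell lists. Digits are replicate numbers and lines the group means; denervated replicate 6 stands at 3.29 in the members, 1.65 in the macrophage genes and 1.98 in the T and natural killer cell genes.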

How the data were processed

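The authors deposited log2 values for 36685 probe sets on each of 12 arrays, with medians between 5.82 and 5.90. The submitters' processing notes name RMA, which corrects background, normalizes by quantiles and summarises probes, and version 1.4.1.46 of Affymetrix Expression Console. No genome build is given in the sources used here. Precision is limited by how many arrays there are. The platform's gene table gave 18511 probe sets 1 gene each; 575 with several genes and 17599 unnamed here were not used. The probe set with the highest mean stood for a gene, which left 18166. Groups and replicate numbers come from the titles. Denervated and sham arrays were compared by linear models in R 4.3.3 (limma 3.58.1, eBayes, two-sided, Benjamini-Hochberg over all 18166 genes, threshold 0.05). The fit was tried first on simulated data in which both groups had the sham SD. That trial does not cover the unequal spread of these data. "Rose", "fell" and "called" refer to that threshold, differences are log2 differences of group means, and ± is the standard error. The members, the lists and the rule for naming genes (every member, with values for the 2 with the largest change in each role and for those not called) were chosen with earlier results of these data known, and the promoters shown were picked after their genes' values were seen. From the pathway list the rule took all ligands, receptors and kinases and up to 6 called genes of each other role, and from each cell type list up to 3 genes of highest mean. Family members outside the set (Ifitm1, Ifitm2, Oas1k, Gbp1, Gbp7, Irgm), Cd79b and Ms4a1 were named after their values were seen. So were Ccr9, Cd3d, Cd3e, Cd3g, Gzmb, Cd8b, Cd2, Nkg7, Prf1 and Ncr1. Lists were described by counts and medians, without a set test.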

Additional observations from a re-analysis of the deposited data

Results flagged for a closer look

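Among 84 groups of 6 values examined (41 members and their mean, in sham and in denervated arrays), 8 held a value far from the other 5, and about 1 in 20 would by chance. Denervated replicate 6 was the high one in 6 of them: Irf1 at 9.08, Gbp2 at 9.50, Gbp4 at 8.77, Dtx3l at 9.84, Ifi44l at 9.04 and Ifi35 at 8.38. Sham replicate 6 was the low one for Ifih1, at 7.06, and for Ifi44l, at 5.37. The groups share their arrays and are not independent of each other.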

How the results depend on the processing

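The number of members that rose was 36 after a further quantile normalization, after median centring, without the dimmest 25% of genes, with probe sets of a gene averaged, and with trend and robust settings, 37 with array weights (14.7% of all genes), and 25 of the 29 members above the median gene where only such genes were tested (17.2% of those genes). The treat test for changes above 1.2-fold called 26 (4.16% of all genes), without Ifih1, Oas1a, Gbp4, Gbp5, Igtp, Trim25, Ifitm3, Ifi44l, Xaf1 and Helz2. Leaving out 1 array at a time gave 32 to 37 higher and 0 lower, with a median change of 1.14 to 1.61. Of the pathway genes 39 to 51 rose and 2 to 4 fell, with a median of 0.39 to 0.53. For the pathway list treat called 19 higher and 0 lower, and the exact rank-sum test 2 lower. The mean of the members over denervated arrays ranged from 1.34 to 1.87 when 1 array was left out, with 0.58 to 1.12 on the lowest and 1.88 to 3.33 on the highest denervated array, the 1.88 being without denervated replicate 6. The SD of the member mean was 0.51 to 1.02 among denervated and 0.16 to 0.20 among sham arrays, and the median SD ratio 2.60 to 4.47.

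With the replicate number as a block 33 members rose, against 10.9% of all genes higher and 13.6% lower. No pairing by replicate number was evident. Same-numbered arrays correlated at -0.112 to 0.101 in their deviations from the group means, and 1 of 6 sham arrays correlated best with its own number. Such correlations cannot exclude that same-numbered samples were handled together, which is not stated. No scan date or array batch is given in the sources used here, so a batch that followed the groups cannot be told apart from them. The table has no detection call, so dim genes cannot be told from background.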

Other observations

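The mean of B and plasma cell genes was highest in denervated replicate 2 (1.34) and stood at 0.81 in replicate 6. Of its 5 genes Jchain alone rose, by 2.92 with a highest value of 9.88 in replicate 2, while Cd79a, Cd79b and Ms4a1 differed by 0.02, -0.02 and 0.08. The mean of the interferon-induced genes stood at 1.26 in replicate 2 and 3.29 in replicate 6. Fibroblast genes stood at 0.06 in replicate 6 and 0.10 in replicate 2, and at 0.41 to 0.51 elsewhere among denervated arrays. Smooth muscle genes were lowest in replicates 5 (-0.69) and 6 (-0.67), against -0.27 to -0.12 in the other 4. Of the 98 genes with an SD of at least 1 among denervated arrays, 20 were members, 8 were on the pathway list and 70 on neither.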
